A study of Mus musculus with 2 samples.

Results

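Transcripts of 10 stress-response genes were followed through the cells of the mouse thoracic aorta. Of these, 7 are immediate early genes (*Fos*, *Fosb*, *Jun*, *Junb*, *Egr1*, *Atf3* and *Ier2*) and 3 are heat shock genes (*Hspa1a*, *Hspa1b* and *Dnajb1*). The genes were chosen by symbol and are 10 of the 32287 features in the deposited tables. The single-cell libraries came from the thoracic aortas of 2 mice labelled WT, aorta 1 and aorta 2, which form 1 group (n = 2). Both were GFPiSMC mice on the C57BL/6J strain at 12 weeks of age, male according to the methods of the study. In this genotype a tamoxifen-activated Cre recombinase driven by the *Myh11* promoter (*Myh11-CreERT2*) switches the mT/mG membrane reporter from tdTomato to GFP in smooth muscle cells (SMCs). Both mice therefore carried the transgene and the reporter, and both had received tamoxifen (intraperitoneal, 1 mg/d, from an age of 3 weeks, over 5 days). The aortas were digested with enzymes in the cold, live singlets were collected by sorting with no gate on GFP, and 1 library was made from each aorta with a 3′ droplet chemistry that labels each captured RNA molecule with a unique molecular identifier (UMI). Undigested tissue was not analysed here and there was no second group, so the comparisons are among cell types within the aortas and between the aortas themselves.

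Immediate early genes are transcribed within minutes of a stimulus without the need for new protein, through transcription factors that already sit in the cell. Fos and Jun proteins pair to form the AP-1 transcription factor, and Egr1 and Atf3 are themselves transcription factors. Heat shock genes are switched on by heat shock factor when proteins misfold. In arteries both sets respond to stretch, injury and growth factors, and they are also known to be induced in many tissues when cells are taken apart with enzymes, which is why the levels in the 2 aortas are set side by side here. How much of any level arose during digestion was not tested.

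The libraries held 8947 and 6263 cells with 47009780 and 30919996 UMIs in aortas 1 and 2, with a median of 4296 and 3945 UMIs per cell. After filtering and removal of doublets 6539 and 4614 cells were analysed, of which 10 barcodes occurred in both libraries. All 28 clusters could be named from markers, and each name used below (SMC, fibroblast and the rest) means a cell whose cluster was like that type by its markers. SMCs numbered 2368 and 1716, fibroblasts 1507 and 1045, endothelial cells 784 and 727, myeloid cells 985 and 607, lymphocytes 598 and 349, and mesothelial cells 274 and 157. The 23 and 13 erythroid-like cells, which should lack these transcripts, held 6 of 141309 and 0 of 93837 UMIs for the 10 genes together. They also held 146 and 25 UMIs of *Acta2*, an SMC transcript, and the part of free RNA in low levels was not tested. Levels are given in CPM, a gene's UMIs scaled to all UMIs of the same cells, always aorta 1 first, and since each 3′ tag is counted once per molecule they do not scale with transcript length. Intervals are exact 95% intervals and cover counting error only.

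Gene positions are those of the mouse build GRCm38 (GENCODE annotation). The promoters printed here are those of the 3 members whose SMC values lay above every other type (*Atf3*, *Hspa1a* and *Hspa1b*) and of *Fos*, which shares a response element with *Atf3*. *Hspa1a* (chr17:34969190-34972156, minus strand) and *Hspa1b* (chr17:34956436-34959238, minus strand) are neighbouring genes of 1 exon each. *Atf3* (chr1:191170296-191218039, minus strand) and *Fos* (chr12:85473890-85477273, plus strand) have up to 5 and 4 exons. Each sequence gives the 250 bases before the RefSeq start site in GRCm38.p6, 5′ to 3′ on the gene's strand. They span chr17:34972157-34972406 for *Hspa1a*, chr17:34959239-34959488 for *Hspa1b*, chr1:191183334-191183583 for *Atf3* and chr12:85473640-85473889 for *Fos*. Capitals mark the heat shock element pair GAANNTTC in *Hspa1a* and *Hspa1b*, the cyclic AMP response element core TGACGT in *Atf3* (read on the opposite strand) and in *Fos*, and the TATA box TATAAA in *Fos*.
Hspa1a: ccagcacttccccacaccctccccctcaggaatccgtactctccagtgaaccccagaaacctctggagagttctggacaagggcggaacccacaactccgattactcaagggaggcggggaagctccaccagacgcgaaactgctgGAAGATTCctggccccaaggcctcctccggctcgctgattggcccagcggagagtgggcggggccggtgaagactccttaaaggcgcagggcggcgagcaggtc
Hspa1b: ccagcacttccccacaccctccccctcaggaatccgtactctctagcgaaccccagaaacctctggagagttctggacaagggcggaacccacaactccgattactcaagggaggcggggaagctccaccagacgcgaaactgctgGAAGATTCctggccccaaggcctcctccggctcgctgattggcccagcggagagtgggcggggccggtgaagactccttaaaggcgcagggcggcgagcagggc
Atf3: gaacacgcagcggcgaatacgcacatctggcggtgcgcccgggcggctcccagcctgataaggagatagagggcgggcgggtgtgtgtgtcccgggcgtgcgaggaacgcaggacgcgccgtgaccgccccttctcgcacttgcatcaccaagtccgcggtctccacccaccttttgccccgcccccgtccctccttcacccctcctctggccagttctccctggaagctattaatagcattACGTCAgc
Fos: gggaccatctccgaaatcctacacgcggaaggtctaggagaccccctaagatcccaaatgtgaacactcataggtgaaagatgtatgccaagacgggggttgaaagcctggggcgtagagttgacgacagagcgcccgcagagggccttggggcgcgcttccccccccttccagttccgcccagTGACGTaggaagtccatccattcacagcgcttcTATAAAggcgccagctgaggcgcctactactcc

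Promoters were found for 8 of the 10 genes; *Egr1* and *Ier2* had none in the table used. On either strand, GAANNTTC was present in *Hspa1a*, *Hspa1b* (both 104 to 97 bases before the start site) and *Jun*, and in 6.69% of all 32851 promoters of this length. TGACGT was present in *Atf3* and *Fos*, 8 to 3 and 66 to 61 bases before the start site, and in 6.47% of promoters. The start site used for *Atf3* lies inside the GENCODE gene, which has a further start upstream. The CCAAT box was present in 5 members and 33.8% of promoters, and TATAAA in 1 member and 12.4%. None of the 8 windows held the letters TTCNNGAA (7.17% of promoters), the AP-1 site TGANTCA (6.75%) or the CArG box bound by serum response factor (1.47%).

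*Hspa1a* and *Hspa1b* encode nearly the same HSP70 protein, and their promoters differed at only 3 of 250 positions, C207T, T204C and T2G, counted back from the start site with the base of *Hspa1a* first. Of the 91-base windows of each transcript, 49.1% of those in *Hspa1a* and 52.0% of those in *Hspa1b* also occurred in the other, so reads there cannot be assigned. In the last 500 bases, where 3′ tags fall, 0 of 410 windows were shared. *Jun*, *Junb* and *Hspa1a* overlap a gene on the opposite strand that is also in the tables (*Junos* by 689 bases, *Prdx2* by 351 and *Gm20481* by 2225), and whether strand was used in the counting was not given in the sources used here.

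Both HSP70 genes stood highest in SMCs. *Hspa1a* stood at 397 and 302 CPM in SMCs against 47.6 and 39.5 in endothelial cells, 23.4 and 41.1 in myeloid cells, 23.9 and 20.7 in fibroblasts, 13.3 and 23.8 in mesothelial cells and 7.93 and 3.79 in lymphocytes. The SMC mean was 349.9 ± 67.1 CPM (SD, n = 2). Both SMC values lay above every other value, and among the other types only lymphocytes stood below all the rest, while neighbours from endothelial to mesothelial cells overlapped. *Hspa1b* stood at 221 and 136 CPM in SMCs, between 10.9 and 24.9 in fibroblasts, endothelial, myeloid and mesothelial cells, and at 2.88 and 3.16 in lymphocytes. The log2 difference of *Hspa1a* in SMCs was smallest against endothelial cells (3.19, SE 0.211, edgeR quasi-likelihood adjusted p = 1.26e-09), and that of *Hspa1b* against fibroblasts (3.12, SE 0.205, edgeR adjusted p = 1.15e-09). Against lymphocytes the differences reached 5.71 and 5.83. With each cell thinned to 1000 UMIs, 17.8% of SMCs in either aorta had a UMI of *Hspa1a*, against 4.72 and 4.81% of endothelial cells and 0.836 and 0.860% of lymphocytes. Without thinning the share of SMCs was 53.7 and 51.2%, at median depths of 7659 and 7443 UMIs against 3944 and 3783 in lymphocytes.

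*Dnajb1*, which encodes the HSP40 co-chaperone that hands substrates to HSP70, had a flatter pattern with another type on top. It stood at 75.0 and 69.6 CPM in lymphocytes, 52.7 and 45.2 in SMCs, 41.8 and 40.5 in myeloid cells, 34.0 and 38.7 in endothelial cells, 25.9 and 25.4 in fibroblasts and 17.1 and 28.8 in mesothelial cells. Only fibroblasts and mesothelial cells overlapped as neighbours in this order, and the highest mean was 3.15 times the lowest, against 59.7 for *Hspa1a*. Relative to SMCs its log2 difference passed the fold limit only against mesothelial cells (1.42, SE 0.193), where it was 0.63 without aorta 1. Against lymphocytes it was -0.63 (SE 0.133, edgeR adjusted p = 0.000483), so the sign was the reverse of that of the HSP70 genes.

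*Atf3*, a stress-induced factor of the ATF/CREB family, was the immediate early gene with the widest margin between SMCs and other types. It stood at 251 and 111 CPM in SMCs (mean 181 ± 99.0, SD, n = 2), 67.3 and 47.2 in myeloid cells, 33.7 and 26.8 in mesothelial cells, 23.6 and 20.6 in endothelial cells, 9.86 and 4.26 in fibroblasts and 3.25 and 1.26 in lymphocytes. No neighbouring types overlapped in this order, and the highest mean was 80.4 times the lowest, the widest span of the 10 genes. The log2 difference was 1.58 against myeloid cells (SE 0.295, edgeR adjusted p = 0.000153) and 4.65 against fibroblasts (SE 0.370, edgeR adjusted p = 1.37e-08). After thinning, 13.9 and 7.46% of SMCs had an *Atf3* UMI, against 6.19 and 3.46% of myeloid cells and 0.597 and 0.287% of fibroblasts.

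*Jun*, the main Jun-family partner in AP-1, had the highest level of the 10 genes over all analysed cells (342 and 244 CPM), although *Hspa1a* stood above it in SMCs of aorta 2 and *Junb* had the higher mean in myeloid cells and lymphocytes. *Jun* stood at 544 and 296 CPM in SMCs and 395 and 355 in endothelial cells, so these 2 types overlapped. Fibroblasts (178 and 220) and myeloid cells (204 and 165) overlapped as well, and mesothelial cells (75.7 and 100.2) and lymphocytes (47.2 and 46.2) stood lowest. The log2 difference between SMCs and endothelial cells was 0.36 (SE 0.207, edgeR adjusted p = 0.164) and turned to -0.26 without aorta 1. Against fibroblasts it was 1.13 (SE 0.207), but 0.43 without aorta 1, and against lymphocytes it was 3.11 (SE 0.256).

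*Fos*, the Fos-family partner, stood highest in myeloid cells, at 106 and 85.3 CPM, against 52.4 and 32.7 in SMCs. Endothelial cells (12.6 and 29.6) overlapped fibroblasts (14.5 and 13.7) and mesothelial cells (12.7 and 12.9), and lymphocytes (10.8 and 11.4) were lowest. Its log2 difference between SMCs and myeloid cells was -1.23 (SE 0.206). That between SMCs and endothelial cells, 1.27 (SE 0.283), rested on aorta 1, since it was 0.14 without it. *Fosb*, a close relative of *Fos*, was the scarcest gene over all analysed cells and in SMCs, where it stood at 19.7 and 9.48 CPM. In fibroblasts it stood at 38.7 and 1.89, with a mean (20.3) above those of *Fos* (14.1) and *Atf3* (7.06). Of its 5 neighbouring pairs of types 4 overlapped. None of the 5 log2 differences of *Fosb* from SMCs passed the test. With aorta as a replicate block, described below, those against endothelial and mesothelial cells did.

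The other 3 immediate early genes were not led by SMCs. *Junb*, a Jun-family member, stood at 215 and 165 CPM in myeloid cells and at 23.9 and 24.8 in SMCs, both of which lay below every value of every other type. Its log2 difference was between -1.15 (mesothelial cells) and -3.04 (myeloid cells), all past the threshold. *Ier2*, a nuclear regulator of transcription, was highest in endothelial cells, at 127 and 195 CPM, against 36.0 and 45.9 in SMCs (log2 difference -1.79, SE 0.191). *Egr1*, a zinc finger factor, was highest in fibroblasts, at 165.4 and 75.6 CPM, with 70.2 and 66.8 in endothelial cells and 53.2 and 40.8 in SMCs. The log2 difference of *Egr1* between SMCs and fibroblasts was -1.33 (SE 0.238), and -0.87 without aorta 1.

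**Figure D1:**
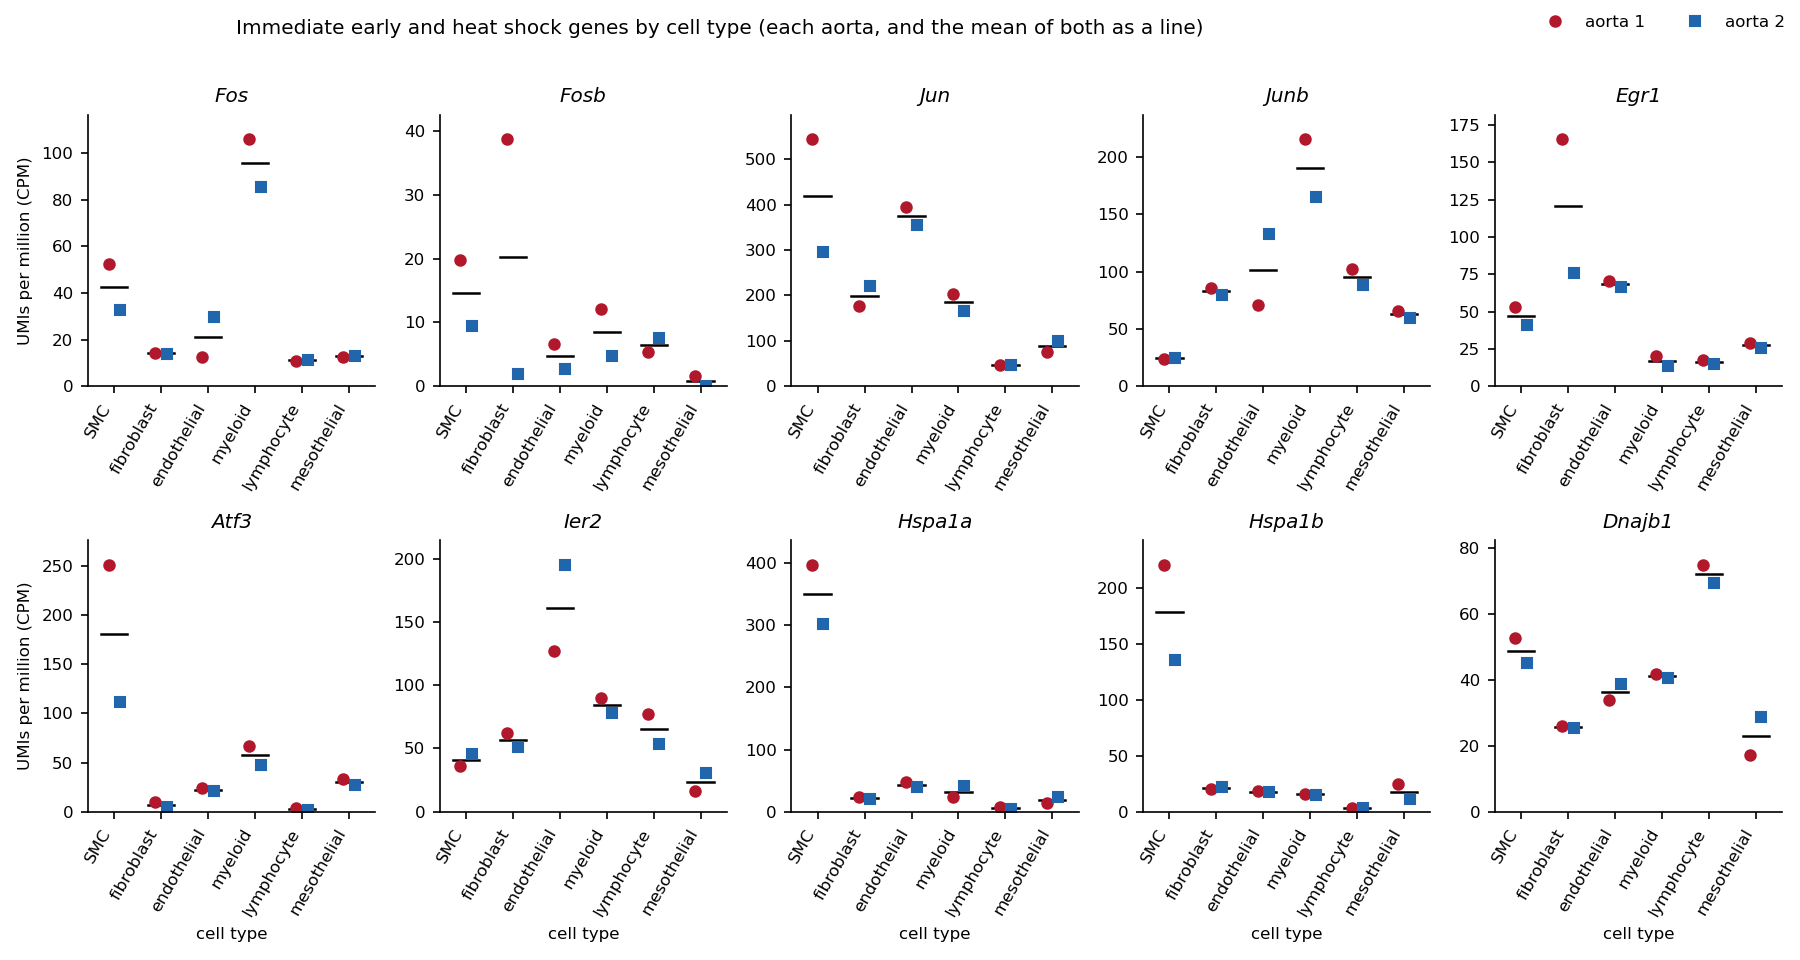
Level of each of the 10 genes by cell type, in CPM (y axis, a separate scale for each gene). Each point is 1 aorta and the short line is the mean of both (n = 2). *Atf3*, *Hspa1a* and *Hspa1b* stand apart in SMCs, with *Hspa1a* at 397 and 302, whereas *Junb* is lowest there at 23.9 and 24.8.

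Counted over all 10 genes, 7 passed the test between SMCs and fibroblasts (edgeR quasi-likelihood test, Benjamini-Hochberg adjusted p up to 0.05 and absolute log2 difference over 1), with 5 higher and 2 lower in SMCs. Of all tested genes that took no part in clustering or naming, the background genes, 21.7% passed. These were mostly genes outside the 2000 most variable, whereas the 10 genes were left out by rule. The background may therefore understate the share for genes as variable as the 10, which was not computed. Against endothelial cells 6 of 10 passed (4 higher, 2 lower, background 24.4%), against myeloid cells 8 (5 and 3, 38.6%), against lymphocytes 7 (6 and 1, 44.8%) and against mesothelial cells 8 (7 and 1, 24.7%). The median log2 difference of the 7 immediate early genes moved from -0.45 against fibroblasts to 1.98 against mesothelial cells. That of the 3 heat shock genes stayed between 3.12 and 5.71. It was always the value of *Hspa1a* or *Hspa1b*, since *Dnajb1* ran from -0.63 to 1.42. The median of the background genes was between -0.06 and 0.08. Because the cell types of an aorta come from 1 animal, the model was also fitted with aorta as a replicate block. With the block, the count against endothelial cells was 7, *Fosb* being added, and that against mesothelial cells was 10, *Fosb* and *Egr1* being added. Leaving out aorta 1, which leaves values with no test, took *Jun* (0.84) and *Ier2* (-0.76) against myeloid cells and *Ier2* (0.56) against mesothelial cells under the fold limit. It also lowered *Atf3* and *Hspa1b* against endothelial cells to 2.38 and 2.89, *Hspa1b* against lymphocytes to 5.04, and *Fos*, *Jun*, *Atf3* and *Hspa1a* against mesothelial cells to 1.28, 1.55, 2.01 and 3.61. Leaving out aorta 2 moved *Fos* against endothelial cells to 1.97 and *Hspa1a* against myeloid cells to 4.03.

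How far the transcripts were concentrated in few SMCs differed by gene. All 10 genes together had 11.7 and 15.1% of their UMIs in the richest 1% of SMCs. The 1% of SMCs richest in *Fosb* (24 and 17 cells) held 76.1 and 62.4% of its UMIs, and the corresponding share was 48.2 and 65.1% for *Fos*, 35.2 and 44.8% for *Egr1* and 35.8 and 34.6% for *Junb*. For *Atf3*, *Hspa1a*, *Hspa1b*, *Ier2* and *Dnajb1* it lay between 16.1 and 26.2%. *Jun* was the most evenly spread, at 8.55 and 9.82%, and 73.1 and 63.4% of SMCs had at least 1 UMI of it. Single cells reached 84 and 78 UMIs of *Fos*, 69 and 52 of *Atf3* and 95 and 147 of *Hspa1a*. After thinning, 12.2% of SMCs (exact 95% interval 10.9 to 13.5) had UMIs of 2 or more of the immediate early genes in aorta 1 and 5.94% (4.87 to 7.17) in aorta 2. UMIs of both sets were found together in 16.8 and 11.0% of SMCs and in 3.55 and 3.79% of myeloid cells. Because UMIs cluster in cells in this way, counting intervals on the sums understate their error.

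**Figure D2:**
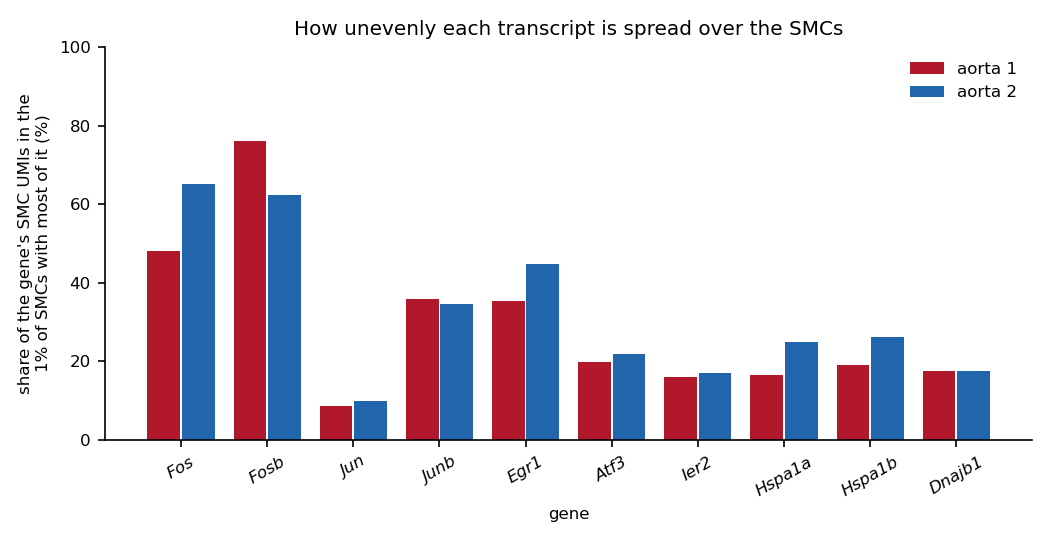
Share of each gene's SMC UMIs held by the 1% of SMCs richest in that gene (y axis, percent), for aorta 1 and aorta 2. *Fosb* and *Fos* are carried by few cells, with 76.1 and 48.2% in aorta 1, and *Jun* is spread most evenly.

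Between the aortas, the SMCs of aorta 1 carried more of most of these transcripts. With 1 aorta against 1 aorta there is no test, and ratios are given with counting intervals. In SMCs 5 of 10 genes were over 1.5-fold apart, all with the larger value in aorta 1. Of the background genes measured well enough in SMCs, again those with no part in clustering or naming, 2.43% were. The 5 genes were *Atf3* (2.26-fold, interval 2.13 to 2.40), *Fosb* (2.08, 1.68 to 2.59), *Jun* (1.83, 1.77 to 1.91), *Hspa1b* (1.63, 1.53 to 1.72) and *Fos* (1.60, 1.42 to 1.81). *Hspa1a* and *Dnajb1* were 1.31- and 1.16-fold apart in the same direction, as was *Egr1* at 53.2 and 40.8 CPM, whereas *Junb* (0.964) and *Ier2* (0.784) had the larger value in aorta 2. The median log2 ratio of the 10 genes was 0.54, against -0.04 over the background genes. Without the single SMC richest in each gene, 5 were still over 1.5-fold apart. With each cell thinned to 1000 UMIs, *Atf3* (1.98), *Fosb* (1.77) and *Jun* (1.60) stayed past 1.5-fold, *Fos* (1.16) and *Hspa1b* (1.37) did not, and *Egr1* (1.76) was added. Median SMC depth (7659 and 7443 UMIs) and mitochondrial share (5.02 and 5.05%) were close in the aortas. The ratios pool the SMC subsets described below, of which the Hand2-led held 650 of 2368 and 360 of 1716 SMCs. The Dlx6-led subset held 432 and 396. There *Hspa1a* (126 and 159.7 CPM), *Hspa1b* (55.6 and 68.5), *Dnajb1* and *Ier2* were larger in aorta 2 and the rest in aorta 1. *Fos* was larger in aorta 2 in the Hoxa7-led subset (34.8 and 43.3 CPM) but not in the Hand2-led one (93.0 and 39.1). The part of SMC make-up in the ratios was not tested.

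In the other cell types the value was larger in aorta 1, by any margin, for 8 of 10 genes in fibroblasts, 9 of 10 in myeloid cells, 5 of 6 in lymphocytes, 5 of 9 in endothelial cells and 4 of 8 in mesothelial cells. The share of background genes larger in aorta 1 by any margin was not counted, but their median log2 ratio lay between -0.0044 and 0.0027 in these types. In endothelial cells 3 of 9 genes were over 1.5-fold apart (background 5.19%), all with the larger value in aorta 2. They were *Fos* (2.35-fold, interval 1.58 to 3.55), *Junb* (1.88, 1.58 to 2.24) and *Ier2* (1.54, 1.35 to 1.76), and *Jun* was 1.11-fold in favour of aorta 1. In fibroblasts 3 of 10 were past this limit (background 4.29%), with the larger value in aorta 1 for *Fosb* (20.4-fold, 11.5 to 39.9), *Atf3* (2.31, 1.49 to 3.70) and *Egr1* (2.19, 1.97 to 2.43). In myeloid cells 2 of 10 were (background 4.99%), *Fosb* with more in aorta 1 (2.54-fold) and *Hspa1a* with more in aorta 2 (1.76, 1.39 to 2.22). None of the 6 genes with enough UMIs in lymphocytes was past the limit (background 7.82%). In mesothelial cells 4 of 8 were (background 9.06%), *Hspa1b* with more in aorta 1 and *Ier2*, *Hspa1a* and *Dnajb1* with more in aorta 2, and each of them rested on at most 45 UMIs per aorta. The median log2 ratio of the members measured was 0.16 in fibroblasts, 0.07 in endothelial cells, 0.31 in myeloid cells, 0.16 in lymphocytes and -0.13 in mesothelial cells. The test of whether the ratio differs between cell types would need more aortas and was not made.

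**Figure D3:**
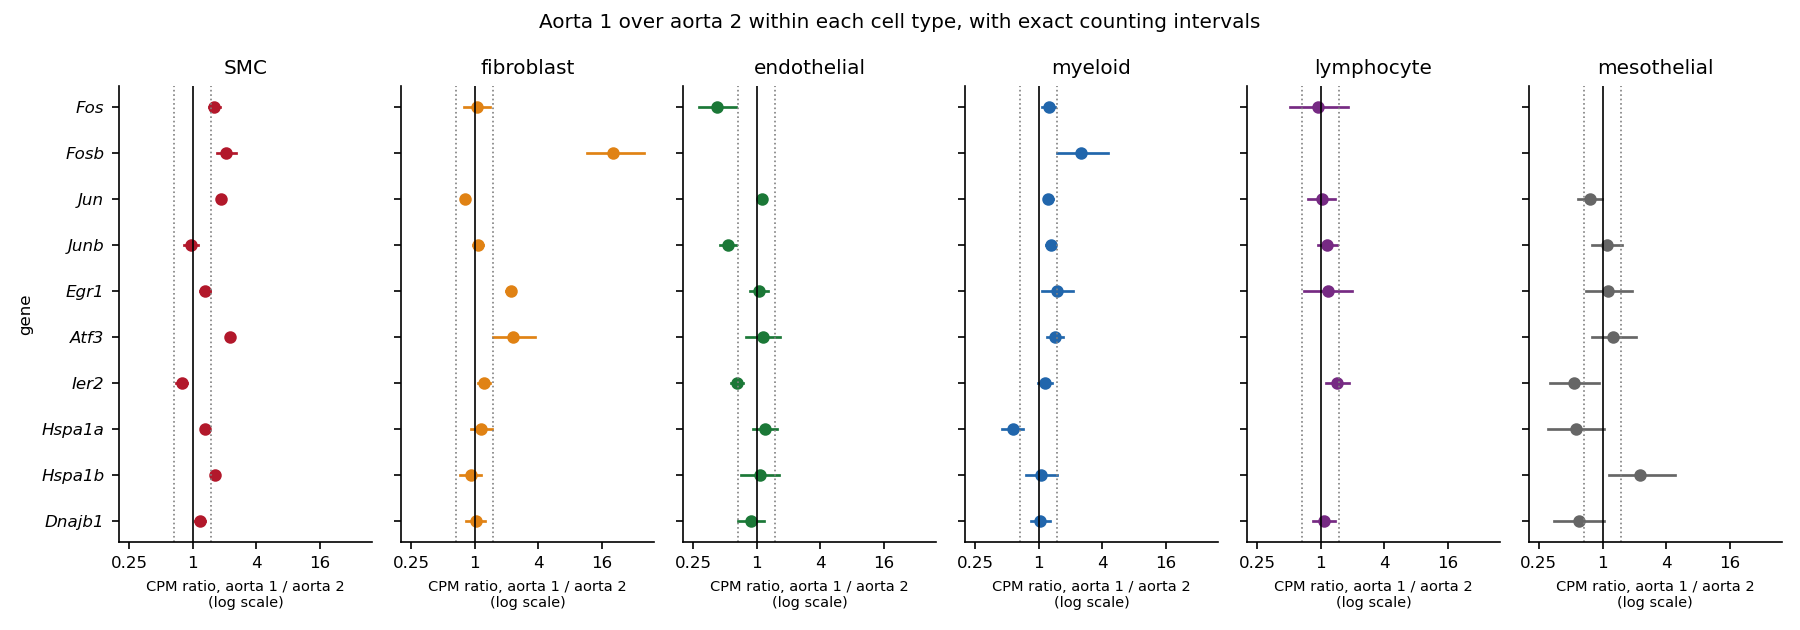
Ratio of the level in aorta 1 to that in aorta 2 for each gene, by cell type (x axis, log scale; bars are exact 95% counting intervals, solid line at 1, dotted lines at 1.5-fold in either direction). Genes with too few UMIs in a type have no point. *Atf3*, *Fosb* and *Jun* lie to the right in SMCs, *Fosb* stands far to the right in fibroblasts at 20.4, and *Fos*, *Junb* and *Ier2* lie to the left in endothelial cells.

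Among whole cell types *Fosb* in fibroblasts was the widest gap between the aortas, 361 UMIs against 12. It was not the work of 1 cell, since at most 19 UMIs came from a single fibroblast, and the ratio was 25.8 without the richest cell of each aorta and 8.88 after thinning. The gap was present in 3 of the 4 large fibroblast clusters. In clusters led by *Penk*, *Fmod* and *Dio2*, *Fosb* stood at 44.7 and 0.562, 50.6 and 2.47, and 44.4 and 0 CPM. In the cluster led by *Pla1a* and *Pi16* it stood at 6.98 and 4.53 CPM, which rest on 9 and 7 UMIs. *Egr1* was 178 and 53.4, 166 and 58.0, 186 and 127, and 148 and 83.5 CPM in the same 4 clusters, always larger in aorta 1. A macrophage-, monocyte- or dendritic-like cluster led by *Mmp12* (134 and 82 cells) had the same direction for *Fosb* (37.3 and 0), *Egr1* (94.7 and 14.1) and *Fos* (213 and 62.3). In the SMC subsets described below, *Fosb* rested on few UMIs. It stood at 27.96 and 14.0 CPM in the Hand2-led subset, which held the most UMIs (178 and 45), at 24.5 and 0.988 in the Dlx6-led (84 and 3 UMIs), 24.1 and 2.46 in the Pln-led (13 and 1) and 18.3 and 0 in the Dcn-led subset (13 and 0, of which 1 cell held 11). The Nrn1-led subset held 2 and 1 UMIs. *Fosb* stood at 11.5 and 11.5 CPM in the Hoxa7-led (52 and 42 UMIs), 5.32 and 11.4 in the Cyb5r3-led (6 and 9) and 0 and 42.5 in the Cdkn1a-led subset (0 and 16).

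Outside SMCs the highest immediate early sum was that of the Mmp12-led cluster in aorta 1 (1354 CPM, against 637 in aorta 2) and that of neutrophils in aorta 2. The neutrophil cluster (100 and 70 cells) held 1332 and 1510 CPM of the 7 genes together, with *Junb* at 582 and 611, *Fos* at 259 and 288, *Ier2* at 220 and 346 and *Jun* at 112 and 119. Its 3 heat shock genes summed to 86.5 and 111 CPM, near those of the other myeloid clusters. Across the 20 clusters with 50 or more cells in each aorta, clusters outside the SMCs kept the heat shock sum at or under 217 CPM in aorta 1 and 132 in aorta 2, whatever their immediate early sum. SMC clusters ran from 230 to 1224 CPM in aorta 1 and from 196 to 1540.5 in aorta 2. The last value was that of a cluster led by *Cdkn1a*, in which 1 cell held 226 of the 456 heat shock UMIs of aorta 2.

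**Figure D4:**
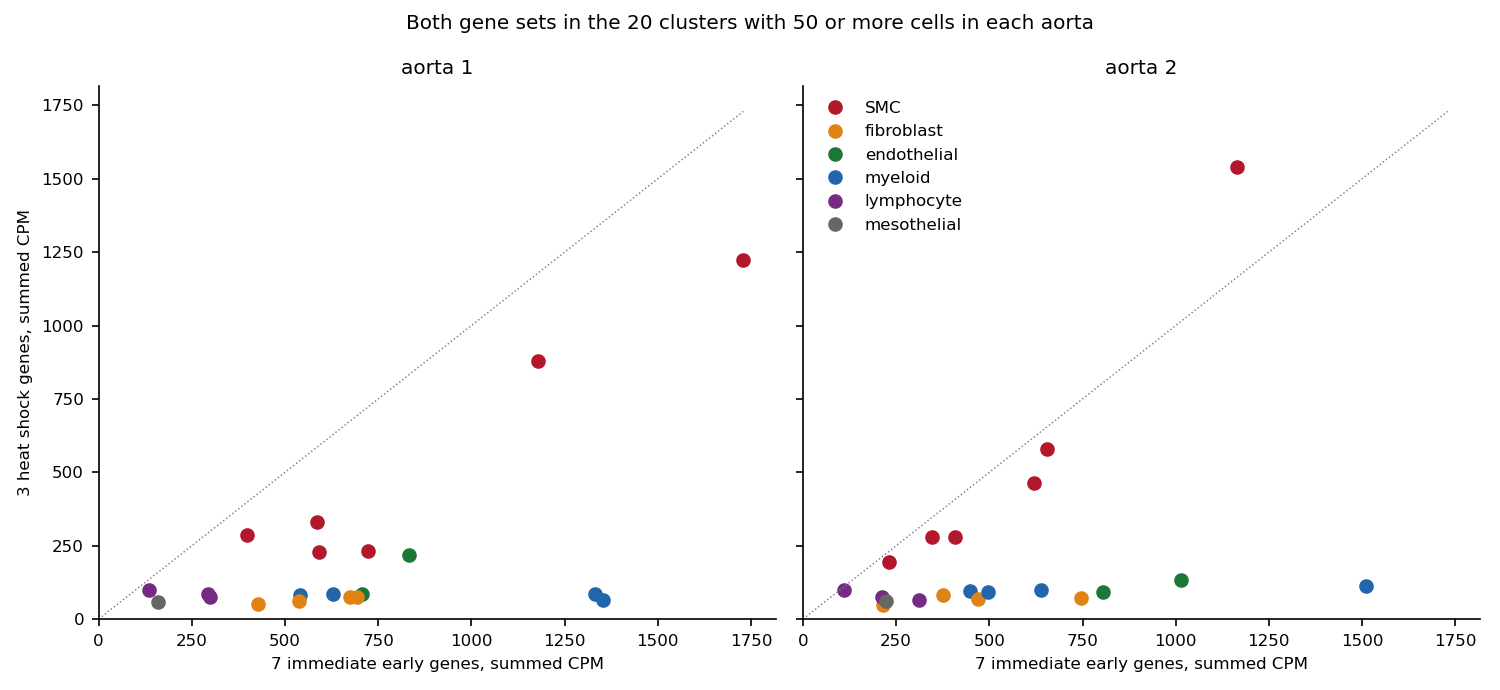
Summed level of the 3 heat shock genes (y axis, CPM) against that of the 7 immediate early genes (x axis, CPM) in the 20 clusters with 50 or more cells in each aorta, coloured by cell type, with a dotted line of equality. The heat shock sum is raised in SMC clusters in both aortas, while clusters of other types reach immediate early sums of 1354 and 1510 with heat shock sums of 65.4 and 111.

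The SMCs fell into 8 subsets, clustered without these 10 genes and without the related stress lists. Other genes that vary along with them stayed in, and the subsets were found in the same cells, so the test below is not independent of how the cells were divided. Subsets are named by a leading gene and carry no cell type name of their own. In the Hand2-led subset (650 and 360 cells) *Hspa1a* stood at 703 and 516 CPM, *Hspa1b* at 392 and 222, *Atf3* at 460 and 182, *Jun* at 734 and 377, *Fos* at 93.0 and 39.1 and *Dnajb1* at 77.4 and 68.7. For *Fos* 1 cell held 78 of the 126 UMIs of aorta 2, and without the richest cell of each aorta its level was 79.9 and 14.96 CPM, against 17.2 and 6.61 CPM in the Dlx6-led subset treated alike. In the Dlx6-led subset (432 and 396 cells) they stood at 126 and 159.7, 55.6 and 68.5, 57.7 and 38.2, 375 and 269, 19.5 and 8.89, and 26.2 and 32.6 CPM. The Hoxa7-led subset (423 and 360 cells) was between these for *Hspa1a* (286 and 257), *Hspa1b* (157 and 113) and *Atf3* (159 and 119.6). *Hand2*, *Dlx6* and *Hoxa7* encode developmental transcription factors.

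Among the subsets 8 of 10 genes passed the F test (edgeR quasi-likelihood, adjusted p up to 0.05), where 46.9% of all genes left out of the clustering did, so this count is read against a high background. *Fosb* (edgeR adjusted p = 0.434) did not pass, and *Jun*, with an unadjusted edgeR p of 0.0260, lay just outside the threshold. With aorta as a replicate block 9 passed, *Jun* being added. The Hand2-led subset was set against the Dlx6-led and Hoxa7-led ones after the levels of these genes were seen. *Atf3*, *Hspa1a* and *Hspa1b* were themselves among the leading genes of the Hand2-led subset. Counts in both contrasts were thus partly set by the choice and cannot be read as a result against the background. Between the Hand2-led and Dlx6-led subsets 5 of 10 passed with a log2 difference over 1 (background 5.99%). The differences were 2.95 for *Atf3* (SE 0.363), 2.52 for *Hspa1b* (SE 0.355), 2.45 for *Fos* (SE 0.338), 2.29 for *Hspa1a* (SE 0.381) and 1.51 for *Dnajb1* (SE 0.182). Each of these 5 genes was higher in the Hand2-led subset in both aortas, but without aorta 1 the differences of *Hspa1a*, *Hspa1b* and *Atf3* were 1.69, 1.69 and 2.22. Between the Hand2-led and Hoxa7-led subsets 2 passed (background 0.398%), *Atf3* with 1.25 (SE 0.319, edgeR adjusted p = 0.0331) and *Hspa1b* with 1.22 (SE 0.322, edgeR adjusted p = 0.0450). Without aorta 1 these were 0.60 and 0.97, and with the block a further gene, *Hspa1a*, passed and made 3. Neither call held with DESeq2, where 0 of 10 passed after adjustment and 2 had an unadjusted p under 0.05.

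**Figure D5:**
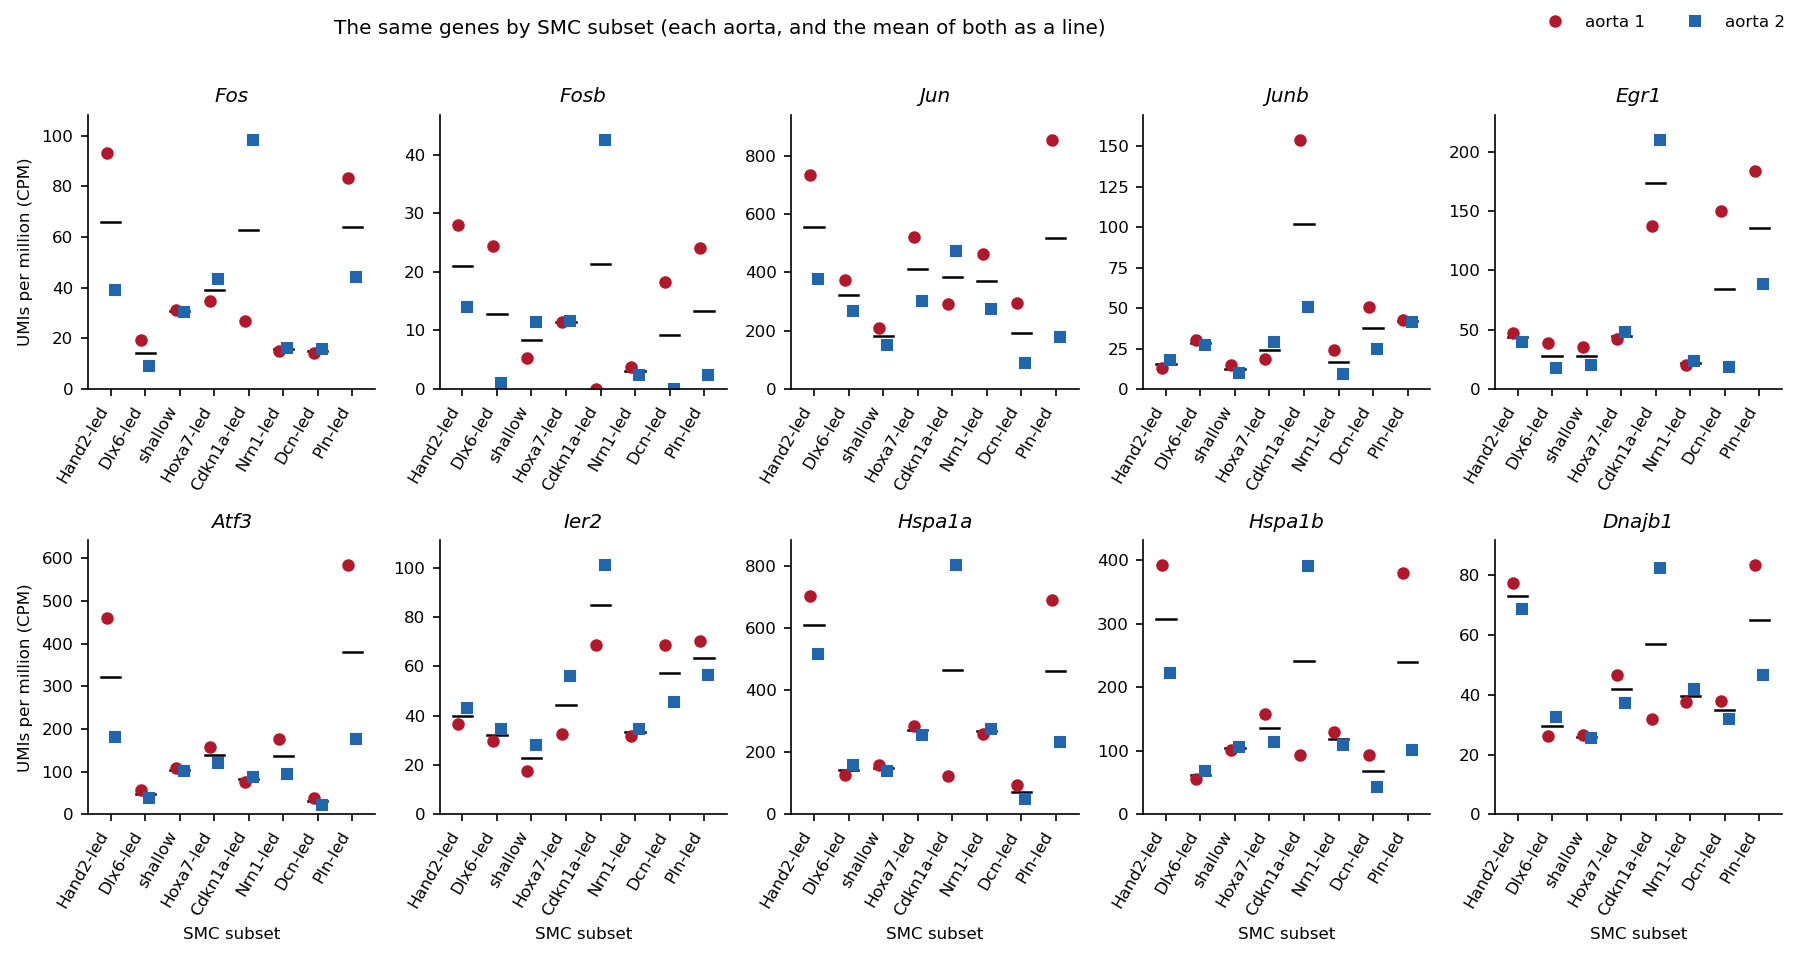
Level of each of the 10 genes by SMC subset (y axis, CPM, a separate scale for each gene). Points are aortas and the short line is their mean (n = 2). The Hand2-led subset holds *Hspa1a* at 703 and 516 and *Atf3* at 460 and 182, while the aortas are far apart in the small Cdkn1a-led and Pln-led subsets.

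The small subsets showed how far few cells can carry a level. In the Pln-led subset (66 and 55 cells) *Jun* stood at 854 and 179 CPM, *Atf3* at 584 and 177 and *Hspa1a* at 691 and 233. In aorta 2 a single cell held 52 of 72 *Atf3* UMIs and 55 of 95 *Hspa1a* UMIs there, and without it the levels were 50.2 and 100.5 CPM. In the Cdkn1a-led subset (112 and 100 cells) *Hspa1a* stood at 125 and 803 CPM, of which 1 cell of aorta 2 held 126 of 302 UMIs. Without the richest cell of each aorta *Hspa1a* was 108 and 472 CPM and *Hspa1b* 83.2 and 126. This subset and the one led by *Cyb5r3* and *Uchl1* were shallow, with median depths of 2349 and 2335 UMIs and of 1841 and 1895.

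Depth and mitochondrial share, taken as signs of cell quality, were set beside the Hand2-led levels. Splitting that subset at its median mitochondrial share (4.95 and 4.92%) gave a heat shock sum of 1176 and 748 CPM below it and 1170.3 and 871 above it. Splitting at the median depth (9664 and 9173 UMIs) gave 1454 and 884 in the shallower cells and 998 and 760.3 in the deeper ones. The Dlx6-led subset, split in the same way at its own medians, lay between 187 and 229 CPM in aorta 1 and between 245 and 278 in aorta 2. Cells of the subsets were not matched for depth, and its part in the levels was not tested. Cells removed for a mitochondrial share of 10% or more (788 and 525) carried an immediate early sum of 347 and 307 CPM, against 738 and 524 in the analysed cells. Cells removed for fewer than 1000 UMIs (1319 and 949) carried 1062 and 375.

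Related genes of the pathways were followed in lists. Of 43 other heat shock and chaperone genes 42 were tested, and 22 passed between SMCs and fibroblasts, 16 higher and 6 lower in SMCs, with a median log2 difference of 0.71. Between 18 and 23 passed against each of the other types, of which 13 to 19 were higher in SMCs, and the medians were 0.58 to 0.95. Of the background genes 21.7% passed against fibroblasts and between 24.4 and 44.8% against the other types. *Hspb1*, which encodes the small heat shock protein HSP27, stood at 2005 and 1569 CPM in SMCs and 159 and 125 in fibroblasts (log2 difference 3.70, SE 0.233). *Hspb6*, a small heat shock protein known from muscle, stood at 201 and 179 CPM in SMCs and 4.71 and 4.10 in fibroblasts, and *Hspb7*, known from heart and vessel, at 213 and 225 CPM in SMCs against 3.78 and 4.35 in endothelial cells. *Hspa1l*, a relative of *Hspa1a*, stood at 13.4 and 11.5 CPM in SMCs and 0.750 and 0.316 in fibroblasts, and whether it shares reads with *Hspa1a* was not tested.

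Of 8 other AP-1 family genes 7 were tested. Against fibroblasts, endothelial cells, myeloid cells, lymphocytes and mesothelial cells 2, 4, 6, 5 and 4 passed. Of the background genes 21.7, 24.4, 38.6, 44.8 and 24.7% did. *Jund*, the Jun-family member that is expressed at rest, stood at 948 and 985 CPM in SMCs and 318 and 327 in endothelial cells (log2 difference 1.77, SE 0.0962), with the aortas nearly level. *Fosl2*, a Fos relative, stood at 63.7 and 51.6 CPM in SMCs and 4.69 and 3.16 in lymphocytes, and within SMCs at 82.8 and 59.0 in the Hand2-led subset against 24.4 and 18.6 in the Nrn1-led one. Of 18 other immediate early transcription factors tested, 10, 10, 13, 14 and 9 passed in the same order, beside the same background. *Klf2*, the factor induced by shear stress in endothelium, stood at 1470.2 and 1619 CPM in endothelial cells and 98.0 and 81.4 in SMCs, and *Klf4* at 346 and 438 in fibroblasts and 55.1 and 46.7 in SMCs. *Nr4a1*, an orphan nuclear receptor, stood at 90.3 and 53.9 CPM in SMCs and 5.05 and 1.26 in lymphocytes.

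Of 27 feedback and early-response genes tested, 9, 11, 19, 19 and 16 passed, in the same order and beside the same background of 21.7, 24.4, 38.6, 44.8 and 24.7%. *Cebpd*, an acute-phase transcription factor, stood at 605 and 592 CPM in fibroblasts and 70.1 and 81.7 in SMCs, and *Btg1*, an antiproliferative gene, at 194 and 172 in SMCs and 34.2 and 20.5 in fibroblasts. *Ccn1*, a secreted matrix protein, stood at 368 and 198 CPM in SMCs and 7.21 and 1.26 in lymphocytes, and so was further apart between the aortas than *Btg1*. Of 20 upstream kinases and factors tested, at most 7 passed in any contrast, the 7 against endothelial cells (background 24.4%) and against lymphocytes (44.8%). *Elk3*, a partner of serum response factor, stood at 162 and 167 CPM in endothelial cells and 23.1 and 22.9 in SMCs, and *Mapk14*, the p38 stress kinase, at 105 and 117 in myeloid cells and 20.4 and 20.3 in SMCs.

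Likeness over clusters was taken as the Pearson correlation of log2(CPM + 10) across the 20 clusters, within each aorta. It is a description, since the clusters of an aorta share a library and differ in depth, and *Sat1*, *Cspg4*, *Ryr2* and *Xirp1* were used in the clustering. The gene most like the sum of the 7 immediate early genes was *Mcur1* (r = 0.71 in aorta 1 and 0.72 in aorta 2), followed by *Sat1* (0.70 and 0.78) and *Cpne2* (0.69 and 0.70), so no gene followed the sum closely. The heat shock sum was followed more closely, by *Sgca* (0.89 and 0.91), *Rock1* (0.89 and 0.91), *Cspg4* (0.89 and 0.89), *Ryr2* (0.89 and 0.91) and *Xirp1* (0.92 and 0.88). *Sgca* encodes a sarcoglycan and *Ryr2* a calcium release channel.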

How the data were processed

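Per the labels and the study's methods, reads were aligned to mm10 with Cell Ranger (version 4.0.0 in the file headers), and the authors deposited filtered matrices of raw UMI counts per gene and cell; their analysis used Seurat 4.0. The 10 genes and the related lists were chosen with earlier results of these data known. Kept were cells that had over 200 genes, between 1000 and 25000 UMIs, and less than 10% mitochondrial UMIs (6744 and 4698), which is more than the 6278 and 4300 the labels give, and 205 and 84 called doublets (Scrublet) were removed. Cells were clustered with scanpy 1.11.5 and leidenalg 0.10.2 (2000 variable genes, 30 components, 15 neighbours, resolution 1, and 0.6 for SMC subsets), leaving the 10 genes and 8 related lists out, and clusters were named from 14 marker classes.

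Counts were summed per aorta and cell type (12 sums, 14137 genes) or SMC subset (16 sums, 9235 genes) and tested with edgeR 4.0.16 in R 4.3.3, quasi-likelihood test with Benjamini-Hochberg adjustment over all genes. The alternatives were the replicate block, DESeq2 1.42.0, no gene filter, a fit on the compared sums alone, other cell filters and clusterings, thinning to 1000 UMIs, and leaving out each aorta. Cell types of 1 aorta come from the same animal, so the aorta numbers pair the sums; over 15 pairs of types the correlation of their deviations ran from 0.0116 to 0.107. The p-values rest on 2 aortas. Each SE is the absolute log2 difference divided by the square root of the quasi-likelihood F statistic, and is not the spread of the 2 aortas. From each related list, the genes named are up to 3 per comparison with the largest log2 difference among those called with 100 or more UMIs, and like genes are the highest-ranked by the lower correlation of both aortas, with at least 500 UMIs in each. Aorta ratios were taken for genes with at least 40 UMIs over both aortas.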

Additional observations from a re-analysis of the deposited data

How the results depend on the processing

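The 76 recomputed counts of genes that passed between SMCs and other types, in the F test among SMC subsets or between the aortas were all within 1.5 times of those given above, but the count between the Hand2-led and Hoxa7-led subsets, 2 above, was not. With other settings 7 to 8 genes passed against fibroblasts, 6 to 7 against endothelial cells, 7 to 8 against myeloid cells, 7 to 8 against lymphocytes and 8 to 10 against mesothelial cells, 8 to 10 among SMC subsets, and 4 to 6 were over 1.5-fold apart between the aortas. Between the Hand2-led and Dlx6-led subsets 5 to 6 passed, and between the Hand2-led and Hoxa7-led ones 0 to 3. The paired fit with the replicate block changed no count other than those named above. Leaving out 1 aorta leaves 1 sum per group, which is a value with no test; past a log2 difference of 1 were then 6 to 7, 6 to 7, 6 to 8, 7 to 9 and 7 to 9 genes against the 5 types, and 6 to 7 and 1 to 5 for the Hand2-led subset against the Dlx6-led and Hoxa7-led ones. The F test among subsets gives no value without an aorta.

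Of 600 log2 differences of single genes between SMCs and other types under the alternatives, 567 kept their direction and side of the threshold, 9 fell below it, 22 passed it and 2 changed sign. Sizes moved more. With both aortas kept, *Hspa1a* ran from 2.21 to 3.26 against endothelial cells and from 4.22 to 5.88 against lymphocytes. *Hspa1b* ran from 4.41 to 7.09 against lymphocytes, and *Atf3* from 3.665 to 4.79 against fibroblasts. Leaving out an aorta gave -0.94 to 1.86 for *Fosb* against fibroblasts and -0.26 to 0.46 for *Jun* against endothelial cells, the sign changing without aorta 1. Between the Hand2-led and Hoxa7-led subsets it gave -0.14 to 1.39 for *Fos*, -0.28 to 0.17 for *Egr1* and -0.37 to 0.18 for *Ier2*, and *Egr1*, at 0.0013, became -0.0371 with the replicate block and -0.0282 with DESeq2. In that contrast DESeq2 called 0 genes after adjustment, and 2 of the 10 had an unadjusted p under 0.05. The log2 ratio of *Junb* between the aortas in SMCs, -0.05, became 0.11 with mitochondrial shares under 5% and 0.37 after thinning. The cause of these changes was not tested. Low levels are limited by depth, since 1 UMI in the mesothelial cells of aorta 2 is close to 1 CPM.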

Other observations

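Related stress pathways that the text above does not describe gave the following values with the same edgeR quasi-likelihood test. Of 12 p53 response genes tested, 3, 4, 5, 6 and 2 passed between SMCs and fibroblasts, endothelial cells, myeloid cells, lymphocytes and mesothelial cells (background 21.7, 24.4, 38.6, 44.8 and 24.7%), and 11 of 11 tested passed among the SMC subsets (background 46.9%). *Cdkn1a*, the cell cycle inhibitor p21, stood at 1118 and 1186 CPM in the Cdkn1a-led subset, where the aortas were nearly level, and at 107 and 73.8 in the shallow subset led by *Cyb5r3*. *Gdf15*, a secreted stress cytokine, stood at 71.0 and 133 CPM in the Cdkn1a-led subset. Of 11 oxidative stress genes, 4, 2, 5, 7 and 4 passed in the same order of types beside the same background, and 7 of 9 among subsets. *Mt1*, a metallothionein, stood at 656 and 1101 CPM in the Cdkn1a-led subset and 61.1 and 152 in the Pln-led one, and *Hmox1*, heme oxygenase 1, at 129 and 195 in myeloid cells and 3.74 and 4.38 in SMCs. Of 12 endoplasmic reticulum stress genes, 4, 5, 7, 4 and 3 passed beside the same background, so that the shares against lymphocytes and mesothelial cells were below it or near it, and 6 of 8 passed among subsets. *Atf5* stood at 289 and 277 CPM in the Cdkn1a-led subset, and *Xbp1* at 299 and 288 in mesothelial cells and 99.7 and 93.5 in SMCs. The Cdkn1a-led subset was shallow, with a median of 2349 and 2335 UMIs per cell, and the part of depth in these levels was not tested.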
